A study of Mus musculus with 4 samples.

Results

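Collagen genes of the embryonic mouse heart were followed across cell types and between wild-type and Cyp51 mutant embryos. The members were the genes with a symbol of the form Col, number, a, number and at least 50 unique molecular identifiers (UMIs, 1 per captured mRNA molecule) over all barcodes. Of 32285 genes, 44 had such a symbol and 38 of these reached the limit. Col5a3 with 51 UMIs and Col20a1 with 64 were just inside it. Col4a3 with 35 UMIs and Col6a6 with 20 were just outside, followed by Col6a5 with 14, Col6a4 with 9, Col28a1 with 2 and Col10a1 with 1.

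Hearts of C57BL/6J embryos at E10.5 were dissociated with collagenase II and a gentleMACS device, red cells were lysed, and droplet (10x Genomics) single-cell RNA libraries were sequenced. There were 2 libraries of wild-type embryos (Wt1 and Wt2) and 2 of embryos homozygous for the I383V allele of Cyp51 (Ho1 and Ho2), which was knocked in with CRISPR/Cas9. Cyp51 encodes lanosterol 14-alpha demethylase of cholesterol synthesis, and counts per gene cannot show whether this missense change was present. The labels give no litter, day or number of embryos for a library, so that p-values measure the spread between these libraries, which may be technical.

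The files held 109893733 UMIs for Wt1, 117034633 for Wt2, 127018819 for Ho1 and 107377100 for Ho2. Between 14 and 34 cell barcodes were shared by each pair of libraries. The filters left 8908 cells in Wt1, 7154 in Wt2, and in the mutant libraries 6980 (Ho1) and 6126 (Ho2). Ho1 stood apart from the other libraries. It held 32234 UMIs of Xist and 0 of the Y-linked genes counted, against 2 to 5 Xist UMIs and 9968 to 10873 Y-linked UMIs in each of the others. Effects of sex and of the single library Ho1 therefore cannot be told apart. The 4 erythroid markers summed to 220 CPM in the cardiomyocyte gate of Ho1 and to 3.50 to 13.4 in the other libraries, and their part in the results was not tested.

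Collagens are secreted or membrane-bound trimers of chains wound into a rod-like helix, and they give tissues their tensile strength. Fibrillar chains (types I, II, III, V and XI) form fibrils in the stroma, type IV chains form the sheet-like network of basement membranes, and FACIT chains decorate fibrils. Multiplexins such as type XVIII lie in basement membranes of vessels and epithelia. At mid-gestation the endocardium, the inner lining of the heart, gives rise to the mesenchyme of the endocardial cushions, from which the valves form, and the epicardium spreads over the myocardium.

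Cell types were set apart by gates on 1 lead gene each, and no collagen gene was used in any gate. The gates were cardiomyocytes (Tnnt2, cardiac troponin T), endocardium with other endothelium (Cdh5, VE-cadherin), cushion mesenchyme (Hapln1), outflow mesenchyme (Stmn4), Crabp1 mesenchyme (Crabp1), epicardium (Upk3b) and epithelium (Epcam). They held 9982, 5063, 3096, 933, 2964, 637 and 868 cells in that order. The gates were applied in order. Cells that passed 1 of the Tnnt2, Cdh5, Upk3b and Epcam limits took that gate whatever their level of the mesenchymal genes, of the remaining cells those over the Stmn4 limit took the outflow gate, and the rest took the Hapln1 or Crabp1 gate. Of 7725 cells over the Hapln1 limit, 3935 were thus in the endocardium gate, 3096 in the cushion gate, 330 in outflow and 205 in epicardium, so that the cushion gate holds the Hapln1 cells that no earlier gate took. Another 5330 cells passed no limit, and 181 were left out because they passed several of the first 4 limits or both of the last 2. The gates are ranges of a count and not types: 1378 cells with a Cdh5 level within 2 times the limit passed it, against 3763 above that, and 2080 cells lay within 2 times the Hapln1 limit.

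Marker genes of each class were checked in the gates. All 10 cardiomyocyte markers, all 10 endothelial markers, all 7 epicardial markers and all 7 epithelial markers were highest in their own gate, the lead gene included. The mesenchymal gates shared markers: 4 of 8 cushion markers were highest in the cushion gate and 4 in the outflow gate, 3 of 6 outflow markers were highest in the outflow gate, and 5 of 8 Crabp1 mesenchyme markers were highest in the Crabp1 gate. The median cell of the endocardium gate held 7 UMIs of Hapln1 and 4 of Cdh5, and the median cell of the epicardium gate 44 UMIs of Myl7, a cardiomyocyte gene. The summed level of the 10 cardiomyocyte markers was 2510 to 3927 UMIs per 1000000 (CPM) in the epicardium gate and 49250 to 50460 CPM in cardiomyocytes. Over all cells of the epicardium gate Myl7 alone was at 2780 CPM, against 178 in the endocardium gate. Myl4 (196 against 69.1) and Tnnt2 (123.5 against 62.0) were also higher there than in endocardium. Ttn (18.3 against 18.4), Myh6 (12.9 against 17.3), Myh7 (10.45 against 14.3), Myl2 (23.2 against 33.5) and Myl3 (29.25 against 39.35) were not. Actn2 and Nkx2-5 were at most 2.71 CPM in both gates. The part of other cells in the levels below was not tested.

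The gates were unevenly filled. The Crabp1 gate held 2189 cells (Wt1), 410 (Wt2), 20 (Ho1) and 345 (Ho2), and the epithelium gate held 440, 174, 0 and 254. Levels of Crabp1 mesenchyme are therefore given by library or also without Ho1, and those for epithelium rest on 3 libraries. Macrophages, which should hold little collagen mRNA, served as the background of free RNA. Their 114 cells gave 42 UMIs of Col18a1 (14.8 CPM), 22 of Col3a1 (7.74 CPM), 14 of Col4a1 (4.92 CPM) and 6 of Col1a1 (2.11 CPM).

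Regulatory sequence is shown for genes that stood out in different gates: Col3a1, the collagen with the most UMIs, Col9a1 (Crabp1 mesenchyme), Col23a1 (endocardium), Col8a2 (epicardium) and Col4a6 (cardiomyocytes, epicardium and epithelium). The 150 bases before the start site are given 5′ to 3′ on the gene's strand, from RefSeq on GRCm38.p6. For Col8a2 the last 1 of these bases is also the first base of the gene as positioned below. The positions are chr1:45311388-45311537 (plus strand) for Col3a1, chr1:24177460-24177609 (plus) for Col9a1, chr11:51289770-51289919 (plus) for Col23a1, chr4:126286644-126286793 (plus) for Col8a2 and chrX:141474077-141474226 (minus) for Col4a6. Capitals mark the letters TATAAA (the TATA box), the letters CCAAT (the CCAAT box) and the letters GGGCGG (the GC box) wherever they stand on either strand.
Col3a1: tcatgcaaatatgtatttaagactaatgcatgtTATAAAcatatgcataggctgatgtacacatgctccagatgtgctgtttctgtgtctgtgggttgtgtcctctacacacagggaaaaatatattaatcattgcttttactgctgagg
Col9a1: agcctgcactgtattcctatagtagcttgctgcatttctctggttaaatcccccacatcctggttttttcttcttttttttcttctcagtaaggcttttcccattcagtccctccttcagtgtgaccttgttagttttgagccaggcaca
Col23a1: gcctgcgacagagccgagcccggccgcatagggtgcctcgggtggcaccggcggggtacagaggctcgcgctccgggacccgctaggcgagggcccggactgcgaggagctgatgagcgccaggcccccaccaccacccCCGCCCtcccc
Col8a2: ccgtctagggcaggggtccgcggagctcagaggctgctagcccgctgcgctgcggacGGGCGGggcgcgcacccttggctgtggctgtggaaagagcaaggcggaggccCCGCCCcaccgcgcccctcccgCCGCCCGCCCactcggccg
Col4a6: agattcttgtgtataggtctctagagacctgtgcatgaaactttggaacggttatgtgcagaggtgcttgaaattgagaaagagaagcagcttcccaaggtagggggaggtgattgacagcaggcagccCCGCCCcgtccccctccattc

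In 250 bases before the start site, TATAAA was found in 4 of 33 promoters of 30 members (12.1%, against 12.4% of the 32851 promoters in the table), among them Col3a1 and Col13a1. CCAAT was found in 12 (36.4%, against 33.8%) and GGGCGG in 19 (57.6%, against 32.7%). By the start sites given below, 21 bases apart on opposite strands, the windows of Col4a1 and Col4a2 are close neighbours. They may therefore not be separate cases. Such matches are descriptions of letters and not of bound sites.

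By the mean over libraries, summed collagen mRNA was highest in the endocardium and outflow gates and lowest in cardiomyocytes. UMIs were counted at the 3′ end of each mRNA, so that levels in CPM do not scale with gene length. Whether mRNAs of different genes were captured equally well was not tested. Ratios, shares and ranks between genes below are therefore those of UMIs counted, and the most abundant collagen of a gate is the one with the highest mean CPM. The 38 members summed to 1604, 1612, 1586 and 1479 CPM of the endocardium gate in Wt1, Wt2, Ho1 and Ho2. In cardiomyocytes the sums were 425, 394, 400 and 444 CPM, below every library of the other 6 gates. The sum was 1520 ± 45.8 CPM (SD, n = 4) in outflow mesenchyme, 1217 ± 54.4 (n = 4) in cushion mesenchyme, 921 ± 97.7 (n = 4) in epicardium and 610 ± 132 (n = 3) in epithelium. Crabp1 mesenchyme ranged widely, with 707 CPM (Wt1), 1599 (Wt2), 2264 (Ho1) and 1135 (Ho2). The sum in macrophages was 65.8 ± 52.2 CPM (n = 4).

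**Figure D1:**
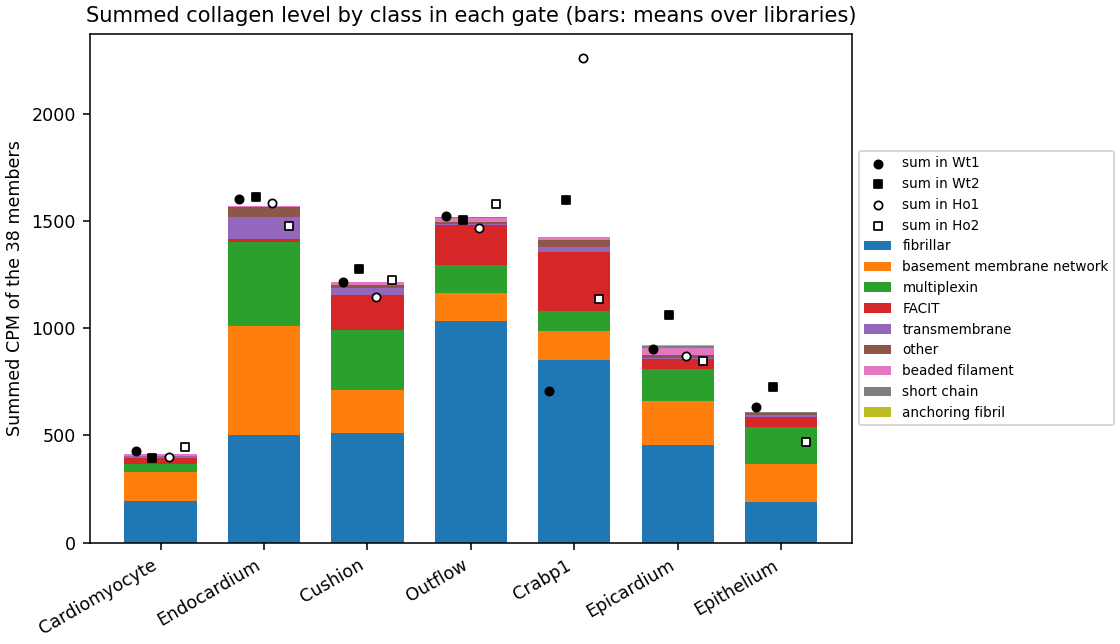
Summed level (CPM of the gate's cells, linear axis from 0) of the 38 collagen genes in 7 gates. Bars are means over libraries split by collagen class, and symbols are the sums in each library; cardiomyocytes are lowest at 394 to 444 CPM, and in Crabp1 mesenchyme the 4 libraries range from 707 to 2264.

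The 11 fibrillar members gave 44.42% of all collagen UMIs, the 5 chains of the basement membrane network 23.73%, the 2 multiplexins 16.97% and the 9 FACIT chains 7.758%. Transmembrane collagens gave 3.643% and the remaining classes less. The makeup differed between gates. Fibrillar chains made 1034 ± 48.5 CPM in outflow mesenchyme and 500 ± 44.0 in endocardium (n = 4 each), whereas network chains made 130 ± 17.7 and 510 ± 33.0. The FACIT class was at 11.0 ± 2.02 CPM in endocardium, 161 ± 12.2 in cushion and 189 ± 21.0 in outflow mesenchyme (n = 4 each). These sums did not overlap between endocardium and outflow in any of the 3 classes.

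Each gate was then compared with the mean of the other gates in 1 edgeR quasi-likelihood fit with the library as a block, and a gene was called at a Benjamini-Hochberg adjusted p under 0.05 over 13462 genes and a log2 fold change of at least 1. The filter on low counts asked for 1.81 CPM in at least 3 sums of a gate in a library. Of the 38 members, 30 passed it and were tested. The 8 others were Col4a4, Col5a3, Col7a1, Col15a1, Col17a1, Col19a1, Col20a1 and Col24a1. Members were called higher 7 times in cardiomyocytes, 8 in endocardium, 10 in cushion, 13 in outflow, 12 in Crabp1 mesenchyme, 9 in epicardium and 4 in epithelium. Of all genes tested, 14.3% were called higher in cardiomyocytes, 9.07% in endocardium, 7.0% in cushion, 7.19% in outflow, 5.76% in Crabp1 mesenchyme, 7.86% in epicardium and 11.9% in epithelium. The members called lower numbered 11, 16, 5, 4, 5, 4 and 10 in the same order, where 10.3%, 11.4%, 6.18%, 5.60%, 7.13%, 7.43% and 8.74% of all genes were called lower. The filter keeps genes that are high in some gate, so that these counts describe the 30 and not all 38 members.

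Of the tested members 9 were called higher in 1 gate, 11 in 2, 8 in 3 and 2 in 4, and of all genes tested 38.7% were called higher in at least 1 gate. Col6a3 and Col8a2 reached the filter's limit in outflow alone and in epicardium alone, so that the filter itself chose them for being high there, and nothing is read from these counts. By mean level over all 38 members, the highest gate was endocardium for 9, Crabp1 mesenchyme for 8, outflow for 6, epicardium for 6, epithelium for 5, cardiomyocytes for 3 and cushion for 1. Without the 20 Crabp1 cells of Ho1 this gate led for 6 members, since Col1a1 moved to outflow (7 members) and Col11a2 to epithelium (6 members). These are ranks of means, and for many members the libraries of the highest gate overlapped those of the next. With all libraries this held for each of the 5 members highest in epithelium. Some leading means were under 1 CPM, such as those of Col20a1 (0.416), Col5a3 (0.473), Col24a1 (0.641) and Col19a1 (0.681). The ranking therefore does not assign each member to a gate.

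**Figure D2:**
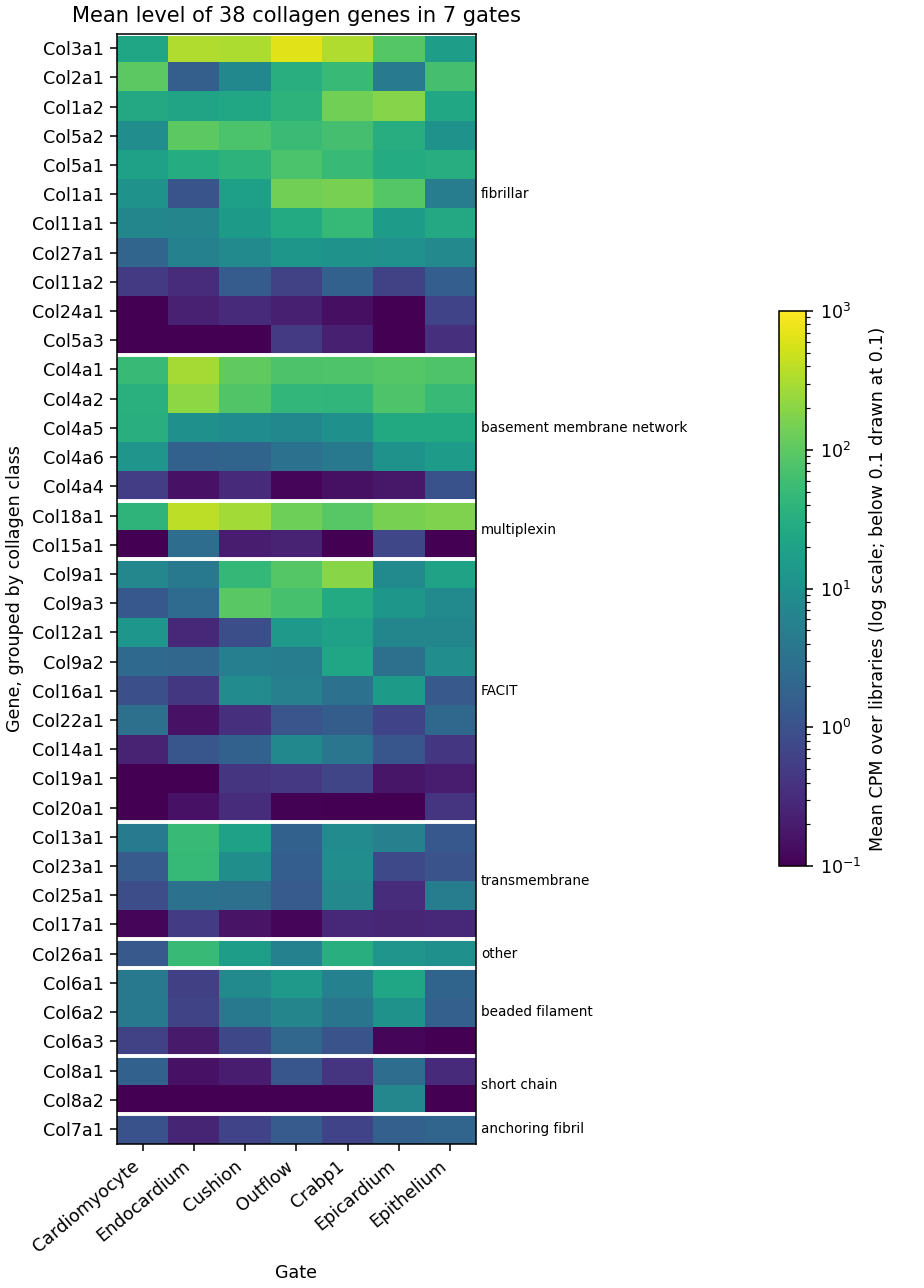
Mean level of each of the 38 members (rows, by class) in the 7 gates (columns), as mean CPM over libraries on a log colour scale with values below 0.1 drawn at 0.1. Col3a1 is brightest in outflow (654 CPM), Col18a1, Col4a1 and Col4a2 in endocardium, and Col8a2 exceeds 0.1 CPM in epicardium alone among the gates.

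Col3a1 (chr1:45311538-45349706, plus strand, GRCm38) encodes the chain of type III fibrils, typical of elastic and soft tissue. Its level in outflow mesenchyme was 670 CPM (Wt1), 639 (Wt2), 613 (Ho1) and 696 (Ho2), which was 43.0% of the collagen of this gate. In endocardium it was 333, 323, 381 and 296 CPM, and in cushion mesenchyme 336, 345, 293 and 311. The outflow libraries were all above those of every other gate, and endocardium and cushion overlapped. Against the other gates Col3a1 was higher by a log2 fold change of 2.70 ± 0.13 (SE, edgeR adjusted p = 1.97e-14) in outflow. Among the 7 gates its mean was lowest in epithelium, at 14.9, 30.3 and 5.56 CPM in Wt1, Wt2 and Ho2, a log2 fold change of -3.83 ± 0.27 (edgeR adjusted p = 2.32e-11).

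The type I chains Col1a1 and Col1a2 form 1 fibril together, and their mRNAs were not in a fixed proportion. In outflow mesenchyme Col1a1 was at 118, 140, 115 and 180 CPM in Wt1, Wt2, Ho1 and Ho2, and Col1a2 at 38.7, 46.8, 25.4 and 43.1. The UMIs of Col1a1 were 3.00 to 4.54 times those of Col1a2 in the 4 outflow libraries. In epicardium the order was turned, with a ratio of 0.437 to 0.496, and Col1a2 was at 167, 223, 174 and 184 CPM, its highest gate. The ratio was 0.038 to 0.065 in endocardium, where Col1a2 stood at 21.3 to 22.5 CPM and Col1a1 at 0.808 to 1.40. In macrophages Col1a1 was at 1.14 ± 2.28 CPM (SD, n = 4), with all 6 of its UMIs in Ho1. Its endocardial level was thus near this background. The ratios of outflow, epicardium and endocardium thus did not overlap. Against the other gates Col1a1 was higher in outflow (log2 fold change 3.22 ± 0.17 SE) and in epicardium (2.55 ± 0.20), and Col1a2 was higher in epicardium (2.53 ± 0.18) but at -0.23 ± 0.24 in outflow (edgeR adjusted p = 2.22e-13, 9.95e-11, 1.54e-11 and 0.46).

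Col2a1, the chain of type II collagen best known from cartilage, was the most abundant collagen of cardiomyocytes. It was at 101, 85.5, 89.3 and 110 CPM in Wt1, Wt2, Ho1 and Ho2, and made 23.2% of the collagen UMIs of this gate. In endocardium it was at 1.44 to 2.03 CPM, and in macrophages at 0.989 ± 1.35 CPM (n = 4). No other gate overlapped with cardiomyocytes, and epithelium came next at 72.0, 71.2 and 55.9 CPM in Wt1, Wt2 and Ho2. Col2a1 was called higher in cardiomyocytes (log2 fold change 3.10 ± 0.10 SE, edgeR adjusted p = 1.77e-19), epithelium (2.02 ± 0.15, 7.52e-11) and Crabp1 mesenchyme (1.68 ± 0.13, 4.92e-10; 1.70 without Ho1).

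Col5a2, a chain of the type V fibrils that start type I fibrils, was at 96.7, 106, 105 and 91.3 CPM in endocardium and 8.36 to 9.99 in cardiomyocytes. Its partner Col5a1 was highest in outflow, at 72.8 ± 7.03 CPM (n = 4, log2 fold change 1.27 ± 0.11 SE, edgeR adjusted p = 5.5e-10). Col11a1 of type XI led in Crabp1 mesenchyme with 44.5, 63.8, 42.5 and 39.8 CPM, above all libraries of the next gate. Col27a1, another fibrillar chain, was at 13.1 ± 1.07 CPM (n = 4) in outflow. Col11a2, Col24a1 and Col5a3 had means of at most 1.72 CPM in every gate.

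**Figure D3:**
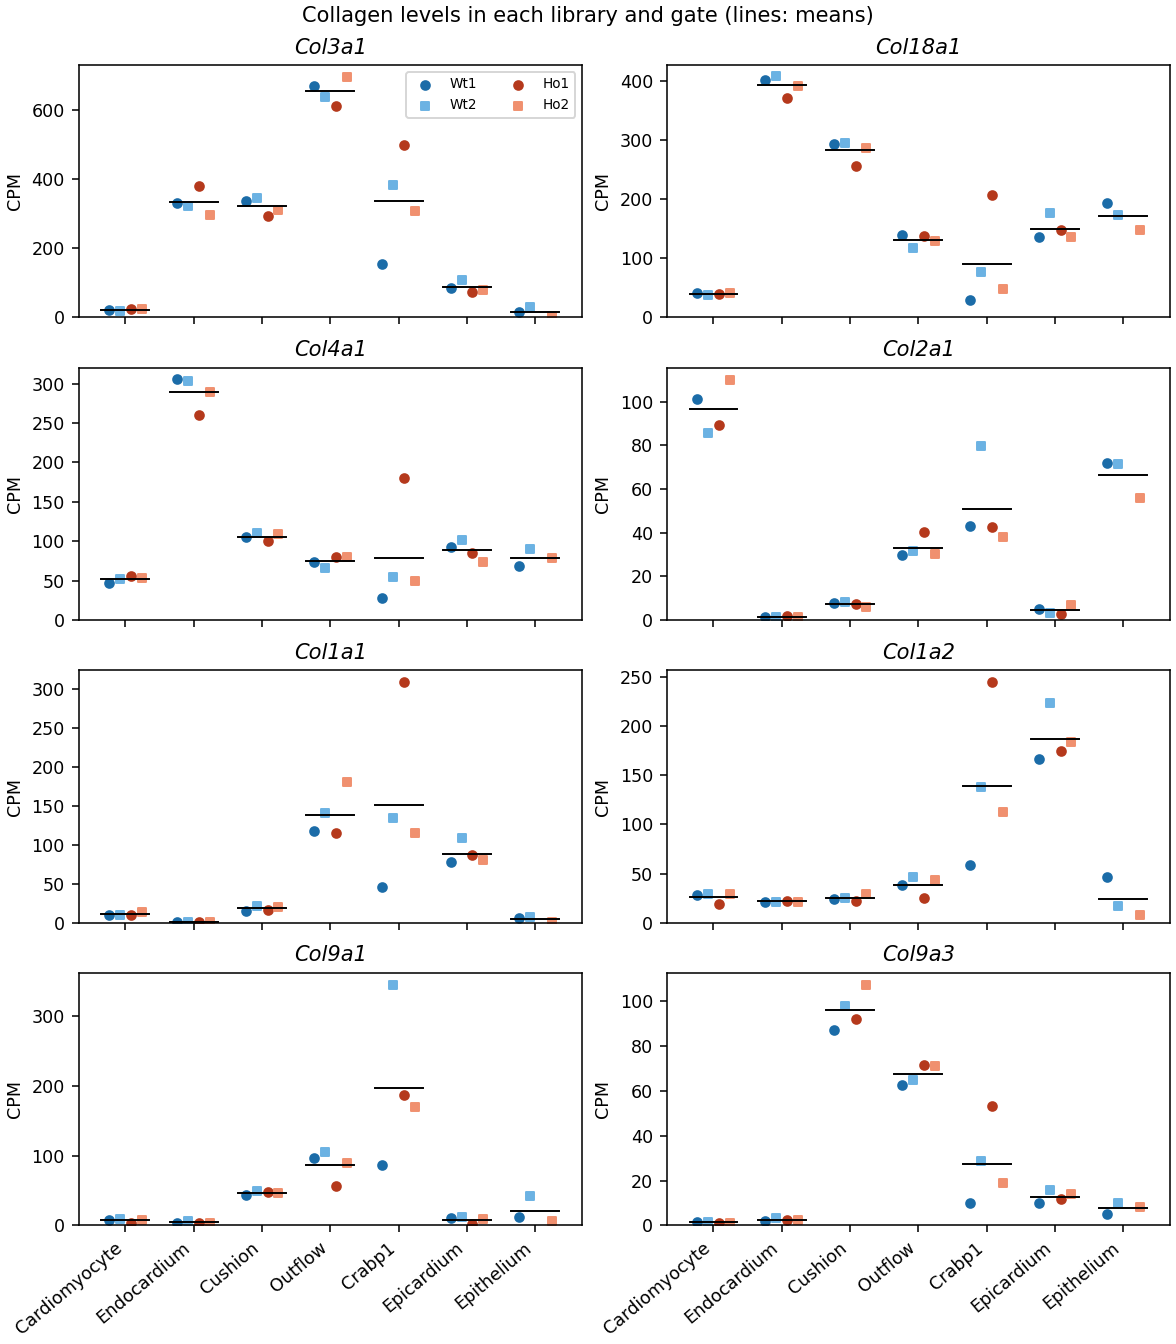
Level of 8 collagen genes in each library and gate (CPM, linear axes from 0; points are libraries, lines are means over libraries, with Ho1 absent in epithelium). Libraries lie close together in most gates and spread in Crabp1 mesenchyme, where Col1a1 runs from 46.2 CPM in Wt1 to 308 in Ho1.

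The type IV network is built by 6 genes that sit in head-to-head pairs, and 5 of them were members. Col4a1 and Col4a2 encode the chains found in nearly all basement membranes, and lie on opposite strands of chromosome 8 with start sites 21 bases apart (11312826 and 11312805). In endocardium Col4a1 was at 306, 304, 260 and 289 CPM and Col4a2 at 224, 214, 224 and 168 CPM in Wt1, Wt2, Ho1 and Ho2. Both were above all libraries of the other gates. Their log2 fold changes were alike in endocardium, 2.07 ± 0.10 (SE) and 2.09 ± 0.08, and in Crabp1 mesenchyme, -1.19 ± 0.15 and -1.25 ± 0.13 (edgeR adjusted p = 2.38e-15, 1.71e-17, 9.4e-07 and 2.16e-08). Without Ho1 the values in Crabp1 mesenchyme were -1.31 and -1.29. The ratio of Col4a1 to Col4a2 UMIs stayed between 0.957 and 2.31 over all gates and libraries. It was highest in Ho2 in each gate but Crabp1 mesenchyme, at 1.74 in cardiomyocytes and 1.72 in endocardium, against 1.16 to 1.52 in the other libraries of these gates.

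Col4a5 and Col4a6, the X-linked pair with start sites 1309 bases apart, had another distribution. Col4a5 was at 34.5, 30.3, 33.2 and 37.5 CPM in cardiomyocytes and 9.85 to 10.8 in endocardium, and Col4a6 at 13.7, 10.7, 11.0 and 14.0 CPM against 1.32 to 1.92. The cardiomyocyte libraries were all above the endocardial ones for both chains, and Ho1, the library with Xist, lay within the range of the others in cardiomyocytes. They were called higher in cardiomyocytes by log2 fold changes of 1.82 ± 0.10 and 2.02 ± 0.17 (SE), and in epicardium by 1.22 ± 0.16 and 1.54 ± 0.27 (edgeR adjusted p = 2.55e-14, 6.82e-11, 1.17e-06 and 4.09e-05). In epithelium Col4a6 passed with 1.94 ± 0.28 (edgeR adjusted p = 2.47e-06) and Col4a5 was at 0.90 ± 0.19, under the fold limit. The pair Col4a3 and Col4a4, with start sites 72 bases apart on chromosome 1, was hardly detected, with 35 and 154 UMIs over all barcodes.

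**Figure D4:**
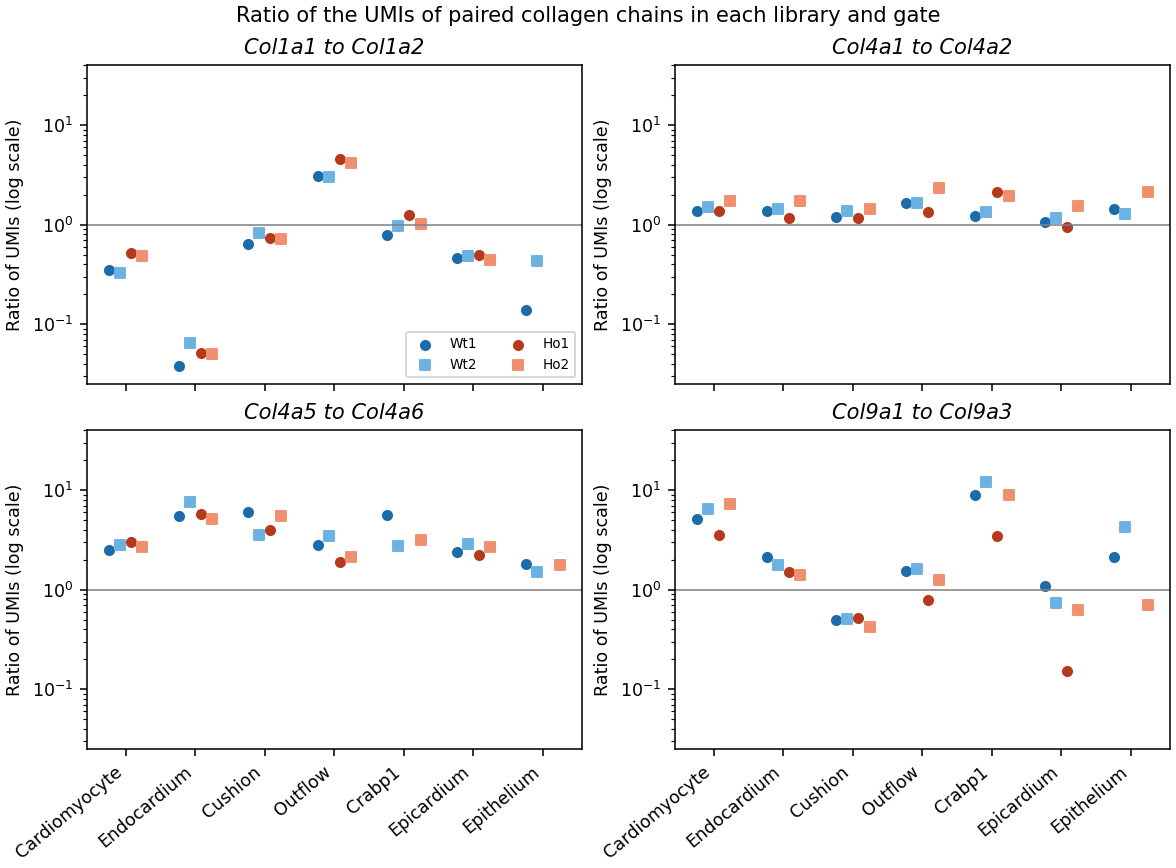
Ratio of the UMIs of paired chains in each library and gate on a log axis, with a line at 1; libraries with 3 or fewer UMIs of a chain are left out. Col4a1 to Col4a2 stays near 1 to 2 in every gate, while Col1a1 to Col1a2 runs from 0.038 in endocardium to 4.54 in outflow and Col9a1 to Col9a3 from 0.152 in epicardium to 11.99 in Crabp1 mesenchyme.

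Col18a1 (chr10:77052178-77166548, minus strand) encodes type XVIII collagen, whose end fragment is endostatin. It was the most abundant collagen of endocardium with 401, 408, 371 and 392 CPM, and came next in cushion mesenchyme with 294, 296, 257 and 286. The gates did not overlap, and macrophages were at 14.8 CPM over all their cells. By library the macrophages were at 0 (Wt1), 9.90 (Wt2), 12.2 (Ho1) and 63.3 CPM (Ho2, from 17 UMIs). Col18a1 was higher in endocardium by a log2 fold change of 1.84 ± 0.12 (SE) and in cushion by 1.20 ± 0.13, and lower in cardiomyocytes by -1.76 ± 0.16 (edgeR adjusted p = 1.2e-12, 2.68e-08 and 2.39e-10). The other multiplexin, Col15a1, had 253 UMIs over all barcodes, 184 of them in endocardium. There it stood at 6.13 CPM (Wt1), 1.59 (Wt2), 0 (Ho1) and 3.06 (Ho2). The count of 0 in Ho1 allows a level of up to 0.105 CPM, for counting error only. Col15a1 was chosen after its values were seen.

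A pair of transmembrane collagens led in the endocardium. Col23a1 (chr11:51289920-51583918, plus strand) was at 48.2, 53.7, 45.0 and 45.0 CPM in endocardium. In cushion it was at 9.75 ± 2.36 CPM (n = 4). In Crabp1 mesenchyme it was at 15.7 CPM (Wt1), 9.42 (Wt2), 0 (Ho1) and 10.9 (Ho2). The count of 0 in Ho1 allows up to 15.9 CPM, for counting error only. Without Ho1 the mean of Crabp1 mesenchyme was above that of cushion, and these gates overlapped. Col23a1 was called higher in Crabp1 mesenchyme (log2 fold change 2.00 ± 0.21 SE, edgeR adjusted p = 5.48e-08), and was at 1.98 without Ho1. It was also called in cushion (1.57 ± 0.21, adjusted p = 8.22e-07). In endocardium its log2 fold change of 4.35 ± 0.13 (SE, edgeR adjusted p = 2.32e-19) was the largest of any tested member. Col13a1, found at cell junctions, followed with 45.1, 53.6, 50.8 and 55.3 CPM and 3.66 ± 0.11 (edgeR adjusted p = 4.18e-19), and was also higher in cushion (1.92 ± 0.15, 1.23e-10). The 10 endothelial markers summed to 617 to 828 CPM in the cushion gate and to 2034 to 2306 CPM in the endocardium gate, and their part in the cushion levels of Col13a1, Col18a1 and Col23a1 was not tested. Col26a1, of none of the larger classes, came next with 43.7, 57.1, 49.7 and 44.5 CPM (2.43 ± 0.17, edgeR adjusted p = 7.72e-12). In Crabp1 mesenchyme Col26a1 was at 53.2 CPM (Wt1), 34.3 (Wt2), 10.6 (Ho1, from 2 UMIs) and 33.6 (Ho2). It was called higher in this gate too (1.93 ± 0.22, edgeR adjusted p = 1.77e-07; 1.89 without Ho1). Another transmembrane collagen, Col25a1, was highest in Crabp1 mesenchyme, at 7.75 ± 2.09 CPM (n = 4) and 6.79 ± 1.01 without Ho1 (n = 3). In macrophages Col23a1 was at 2.52 ± 3.35 CPM and Col13a1 at 2.79 ± 3.24 (n = 4 each).

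Type IX collagen, of the FACIT class, joins the chains of Col9a1, Col9a2 and Col9a3, and each mRNA had its own distribution. Col9a3 (chr2:180597790-180622189, plus strand) was highest in cushion mesenchyme with 87.3, 97.9, 92.1 and 107 CPM, above the 67.6 ± 4.601 (n = 4) of outflow. It was at 2.49 ± 0.588 CPM (n = 4) in endocardium, and its log2 fold change in cushion was 3.46 ± 0.10 (SE, edgeR adjusted p = 2.11e-18). Col9a1 was highest in Crabp1 mesenchyme with 87.1, 344, 186 and 170 CPM, followed by outflow with 96.3, 105, 56.4 and 89.4, and these gates overlapped. The Col9a1 to Col9a3 ratio was 0.426 to 0.526 in cushion and 3.50 to 11.99 in Crabp1 mesenchyme. Col9a2 was at 23.2 ± 11.1 CPM (n = 4) in Crabp1 mesenchyme (18.5 ± 7.33 without Ho1, n = 3) and at most 9.28 CPM on average elsewhere.

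Col9a1 had the largest log2 fold change of any tested member in Crabp1 mesenchyme, 3.36 ± 0.18 (SE, edgeR adjusted p = 6.31e-13), and 3.31 without Ho1. Col1a1 followed with 2.59 ± 0.19 (2.46 without Ho1) in this gate. Levels in this gate were higher in Ho1 than in Wt1 for Col3a1 (500 against 154 CPM), Col18a1 (207 against 29.1) and Col4a1 (181 against 28.7). The 10 cardiomyocyte markers summed to 1568 CPM in the Ho1 cells and to 268 in those of Wt1, and the 8 cushion markers to 1222 and 498. Their part in the higher levels was not tested.

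Among the other FACIT chains, Col12a1 was called higher in cardiomyocytes (2.06 ± 0.19 SE), outflow (1.99 ± 0.26) and Crabp1 mesenchyme (2.10 ± 0.25, and 2.05 without Ho1), and was at 0.277 ± 0.0994 CPM (n = 4) in endocardium. Col22a1, known from muscle-tendon junctions, was highest in cardiomyocytes with 2.92, 2.93, 2.61 and 3.68 CPM (2.32 ± 0.20 SE). Col14a1 was highest in outflow with 8.73, 7.04, 9.63 and 3.62 CPM (3.01 ± 0.24 SE). Col16a1 was highest in epicardium with 13.3, 18.01, 15.8 and 12.7 CPM (2.97 ± 0.13 SE), and was also called in cushion (1.91 ± 0.12) and outflow (1.24). Adjusted p values of these calls in edgeR were at most 1.03e-06 for Col12a1 and were 1.79e-10, 2.66e-10 and 2.89e-15 for the highest gates of the other 3 genes.

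Both short-chain collagens and the type VI chains Col6a1 and Col6a2 had their highest mean in the epicardium. Col8a2 (chr4:126286793-126314330, plus strand), a chain of the hexagonal type VIII lattice, was at 7.32, 7.10, 7.39 and 6.23 CPM, with 92 of its 138 UMIs there. In the other gates its mean was at most 0.07 CPM, and macrophages held 0 UMIs of it. It passed the filter on low counts through the epicardium alone, so that no fold change or test is given for it. Col8a1 was called in epicardium (2.66), cardiomyocytes (2.08 ± 0.26 SE) and outflow (1.29), with 2.38, 1.54, 1.01 and 1.95 CPM in cardiomyocytes. Its 35 UMIs in epicardium gave 2.75, 2.54, 3.52 and 2.08 CPM, so that these 2 gates overlapped. Col6a1, a chain of the type VI microfibrils, was at 19.7, 30.2, 18.3 and 23.1 CPM in epicardium and at 14.2, 13.0, 14.4 and 14.9 in outflow, and these did not overlap. Its log2 fold changes were 2.78 ± 0.15 and 1.87 ± 0.16 (SE). The neighbouring Col6a2 ran with it, at 11.2 ± 2.27 and 6.70 ± 0.579 CPM (n = 4 each), whereas Col6a3 had 1 UMI in epicardium and 31 in outflow, at 1.89, 1.26, 2.41 and 2.82 CPM. No fold change or test is given for Col6a3 either, since it passed the filter through outflow alone.

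In epithelium 4 of 30 tested members were called higher, near the 11.9% of all genes. Besides Col2a1 and Col4a6, Col25a1 passed with 7.98 CPM in Wt1, 4.95 in Wt2 and 1.85 in Ho2 (log2 fold change 1.37 ± 0.36 SE, edgeR adjusted p = 0.00262), and was at 0.83 (adjusted p = 0.221) without Wt1. The fourth was Col22a1 (1.29). Col18a1 was the most abundant collagen of epithelium at 171 ± 22.3 CPM (n = 3) and was not called there. Col7a1, the chain of the anchoring fibrils under epithelia, had 16 UMIs in this gate.

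Genes that make and crosslink collagen were counted in the same fit. Of 32 genes for synthesis and crosslinking, 30 were tested, and 13 were called higher in outflow, 8 in epicardium, 4 in endocardium, 3 in cushion, 2 in cardiomyocytes, 2 in Crabp1 mesenchyme and 0 in epithelium. The median log2 fold change of the list was 0.77 in outflow and -0.90 in epithelium, against -0.03 and 0.00057 over all genes. In outflow the called genes included the procollagen N-proteinase Adamts2 (4.30), the lysyl oxidases Loxl2 (1.96), Loxl1 (1.84) and Lox (1.72), and the lysyl hydroxylases Plod2 (1.59) and Plod1 (1.02). Loxl1 (3.42), Lox (2.99) and Loxl3 (2.22) were also higher in epicardium. In epithelium 10 genes of the list were called lower, among them Pcolce (-2.37) and P3h3 (-2.20). Of all genes 8.74% were lower in epithelium. Shares of all genes called higher were 7.19% in outflow, 7.86% in epicardium, 9.07% in endocardium and 7.0% in cushion. They were 14.3% in cardiomyocytes, 5.76% in Crabp1 mesenchyme and 11.9% in epithelium. Whether genes of this and the next 2 lists passed the filter on low counts through 1 gate alone was not checked.

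Of 20 genes for collagen receptors and breakdown, 13 were tested, and 8 were called higher in outflow, 6 in cushion, 4 in endocardium, 4 in epicardium, 3 in Crabp1 mesenchyme, 1 in cardiomyocytes and 0 in epithelium, where 7 were lower. Of all genes 7.19% were higher in outflow, 7.0% in cushion, 9.07% in endocardium and 7.86% in epicardium. The shares were 5.76% in Crabp1 mesenchyme, 14.3% in cardiomyocytes and 11.9% in epithelium, where 8.74% were lower. The median log2 fold change was 1.10 in outflow and -1.07 in cardiomyocytes, against -0.03 and 0.01 over all genes. Of the collagen-binding kinases, Ddr1 was higher in cardiomyocytes (1.81), outflow (1.10) and epicardium (2.88) and lower in endocardium (-4.79), and Ddr2 was higher in Crabp1 mesenchyme (3.65), outflow (3.09) and epicardium (1.51) and lower in endocardium (-4.38). The integrin chains Itga1 (2.14) and Itga2 (3.39) and the protease Ctsk (4.34) were higher in endocardium. Mmp2, a gelatinase, was called higher in endocardium, cushion, outflow and Crabp1 mesenchyme (1.34 to 2.27) and lower in cardiomyocytes (-4.00) and epicardium (-2.77).

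Of 14 partners in basement membranes, 13 were tested. Those called higher numbered 6 in cardiomyocytes, 3 each in endocardium, outflow and epicardium, 2 in cushion, 2 in epithelium and 1 in Crabp1 mesenchyme, and the median log2 fold change was 0.69 in cardiomyocytes (0.01 over all genes). Of all genes 14.3% were higher in cardiomyocytes, 9.07% in endocardium, 7.19% in outflow and 7.86% in epicardium. The shares were 7.0% in cushion, 11.9% in epithelium and 5.76% in Crabp1 mesenchyme. The laminin chains differed between gates: Lama2 (3.21) and Lama5 (1.90) were higher in cardiomyocytes, Lama4 (2.23) in endocardium beside the perlecan gene Hspg2 (1.82), and Lama5 (3.04) in epithelium. Nid1 was higher in endocardium (2.50) and lower in cardiomyocytes (-3.10), and Nid2 the other way (-1.44 and 2.46).

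The study's own comparison, mutant against wild type, was then made within each gate on the 2 Wt and 2 Ho libraries. No member was called in any gate at an edgeR adjusted p under 0.05, and DESeq2 called none either. Of all genes tested, 0.00% were called in cardiomyocytes, 0.00% in endocardium, 0.0243% in cushion, 0.00% in outflow, 0.00% in Crabp1 mesenchyme, 0.0578% in epicardium and 0.455% in epithelium. At an unadjusted p under 0.05 there were 3 of 31 tested members in cardiomyocytes, 0 of 25 in endocardium, 0 of 25 in cushion, 2 of 22 in outflow, 0 of 25 in Crabp1 mesenchyme, 3 of 23 in epicardium and 8 of 23 in epithelium. Of all genes 6.51%, 5.15%, 5.38%, 5.57%, 1.22%, 5.11% and 5.82% did so in the same order. The median log2 fold change of the members lay between -0.12 and 0.13 in cardiomyocytes, endocardium, cushion, outflow and epicardium, where that of all genes lay between -0.00235 and 0.00457. It was 0.47 in Crabp1 mesenchyme and -0.53 in epithelium (-0.02 over all genes in both), the 2 gates with few or no cells of Ho1. Over the 6 gates with 4 libraries, 12 of the 38 members (31.6%) had both Ho libraries above both Wt libraries in one gate and below them in another, as did 25.6% of all genes with at least 50 UMIs, and nothing is read from this count.

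**Figure D5:**
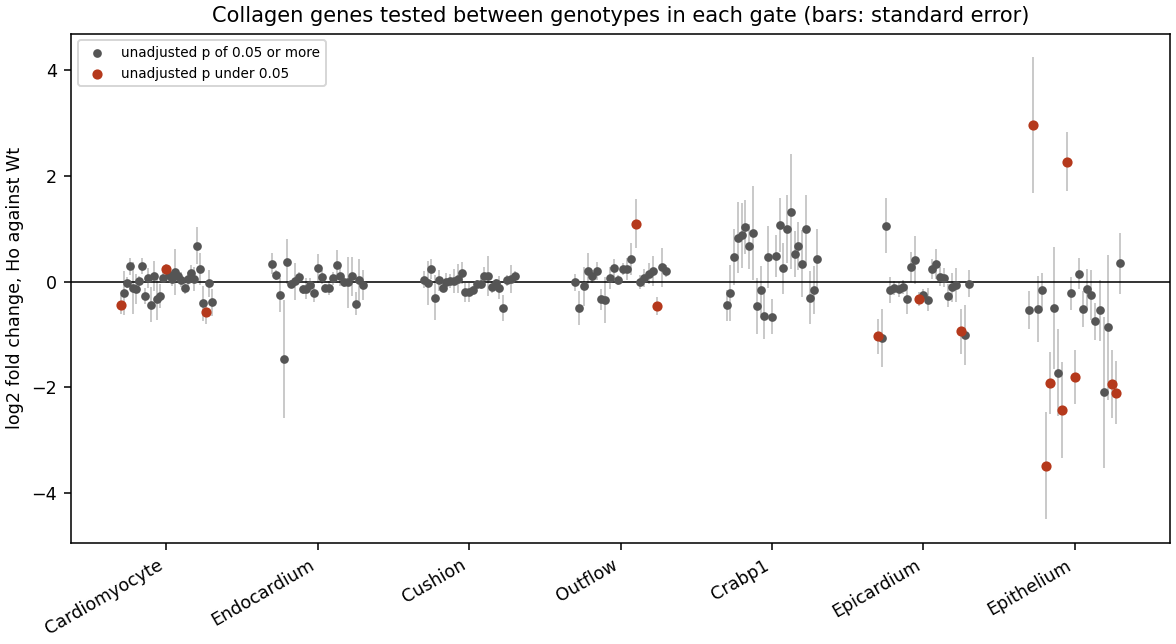
Log2 fold change of the tested members between Ho and Wt in each gate (points, with standard errors as bars; members in alphabetical order within a gate). Points in red had an unadjusted p under 0.05, and none passed after adjustment; values run from -0.58 to 0.68 in cardiomyocytes, and the widest spread is in epithelium, with 2 Wt libraries and 1 Ho library.

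Col9a1 had the smallest p of the members in 3 gates. It was at 8.31 and 8.54 CPM in Wt1 and Wt2 against 4.08 and 7.52 in Ho1 and Ho2 in cardiomyocytes (log2 fold change -0.58 ± 0.22 SE, edgeR adjusted p = 0.737). In outflow it was at 96.3 and 105 CPM against 56.4 and 89.4 (-0.46 ± 0.17, adjusted p = 0.867), and in endocardium at 3.91 and 5.75 CPM against 3.74 and 3.36 (-0.42 ± 0.22, adjusted p = 0.915). Both Ho libraries were below both Wt libraries in these gates, and Ho1 was the lowest in cardiomyocytes and outflow. In cardiomyocytes and outflow the size rested on Ho1: without it the log2 fold changes were -0.23 and -0.16 (edgeR adjusted p = 0.578 and 0.821), whereas that in endocardium was -0.55 (0.509). Without Ho2, with Ho1 as the lone mutant library and the spread taken from the Wt libraries, they were -1.002 in cardiomyocytes and -0.78 in outflow (adjusted p = 0.0202 and 2.26e-06). In epicardium both Ho libraries were also below both Wt libraries, at 10.99 and 11.67 CPM against 1.76 and 8.77 (-0.94 ± 0.43, edgeR adjusted p = 0.945). In cushion mesenchyme the groups overlapped, at 43.6, 49.7, 48.5 and 45.7 CPM. In whole libraries Col9a1 had 51.7 CPM (Wt1), 51.3 (Wt2), 11.6 (Ho1) and 29.9 (Ho2). Of its UMIs in the cells that passed the filters, the Crabp1 gate supplied 41.6%, 29.2%, 2.59% and 27.6% in that order. The part of free RNA from those cells in the other gates was not tested.

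In epicardium Col11a1 had the smallest p of the members. It was at 29.8 CPM (Wt1), 16.0 (Wt2), 6.69 (Ho1) and 13.2 (Ho2), so that both Ho libraries were below both Wt libraries (log2 fold change -1.03 ± 0.33 SE, edgeR adjusted p = 0.736). It was -0.57 without Wt1 (edgeR adjusted p = 0.995) and -1.51 without Wt2 (adjusted p = 0.0129), a fit in which Wt1 is the lone wild-type library and the spread comes from the Ho libraries. In cushion mesenchyme the smallest p was that of Col3a1, with 336 and 345 CPM in the Wt libraries and 293 and 311 in the Ho libraries (-0.16 ± 0.07, adjusted p = 0.927). In Crabp1 mesenchyme it was Col4a1, at 28.7, 54.4, 181 and 49.3 CPM (1.08 ± 0.51, adjusted p = 0.9999), and the value was 0.28 without the 20 cells of Ho1. A crossed replicate block, chosen after seeing the data, did call Col4a1 there (log2 fold change 1.08).

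In epithelium the comparison rests on Wt1 and Wt2 against Ho2 alone. Col27a1 was at 2.52 and 4.95 CPM against 15.1 (log2 fold change 2.28 ± 0.56 SE, edgeR adjusted p = 0.171). Col11a2 (2.97) was also higher in Ho2. In the other direction were Col1a1 (-3.48), Col26a1 (-2.42), Col9a2 (-2.10), Col9a1 (-1.93), Col1a2 (-1.92) and Col3a1 (-1.79). With Col27a1 these are the 8 members counted above for epithelium, and none was called. The 8 Crabp1 mesenchyme markers summed to 370 and 239 CPM in the epithelium gate of Wt1 and Wt2 and to 67.3 in that of Ho2, with Crabp1 the most abundant. Their part in these values was not tested.

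The lists of partner genes were compared between genotypes in the same fits. None of the synthesis and crosslinking genes and none of the receptor and breakdown genes was called by edgeR in any gate, with unadjusted p under 0.05 for at most 4 (of 28 tested in cushion, against 5.38% of all genes) and 2 (of 13 in outflow, against 5.57%). Of the basement membrane partners only the laminin chain Lama3 was called by edgeR, in epithelium (log2 fold change 5.28). That fit sets 2 Wt libraries against Ho2 alone, so that its spread comes from the Wt libraries only. No gene was called there with RLE normalization. At most 3 of the partners had an unadjusted edgeR p under 0.05 in a gate (of 11 in outflow).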

How the data were processed

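The deposited files held, per the labels and the study's methods, UMI counts per gene and cell barcode that the authors made with Cell Ranger 6.1.1 on mm10; the submitters' processing notes also name Seurat 4.1.0. The counts were used as deposited. Cells with 500 to 50000 UMIs, 500 to 6000 genes and at most 20% mitochondrial UMIs were kept. The barcodes with the highest Scrublet scores (scanpy 1.11.5), 0.8% per 1000 cells, were removed as doublets. Gate limits on lead genes were set after the distributions of these genes had been seen, the Tnnt2, Cdh5, Upk3b and Epcam gates came before Stmn4, and Stmn4 before Hapln1 and Crabp1; 181 cells over several limits of one step were left out. Gate sums with at least 20 cells in a library were fitted with edgeR 4.0.16 in R 4.3.3 (TMM, filterByExpr, quasi-likelihood test, Benjamini-Hochberg adjustment over all genes tested). DESeq2 1.42.0, other normalizations, filters and gate limits and leaving out libraries were alternatives. The code was tested on simulated data.

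The libraries held 107377100 to 127018819 UMIs, and intervals and floors (3 counts) cover counting error only. CPM is UMIs per 1000000 UMIs of a gate's cells in a library. Named in each gate were the 3 members with the highest mean, the 3 with the largest fold among those called, and the member with the smallest p between genotypes, besides the type IV pairs; any further gene was picked with its values in view. The members and lists were chosen with earlier results of these data known. Promoters came from RefSeq on GRCm38.p6 and gene positions from GENCODE M21. One gene of the basement membrane list is not reported here by name.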

Additional observations from a re-analysis of the deposited data

Results flagged for a closer look

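Of the 5 collagen genes named between genotypes, for 3 the pair of Ho libraries was higher than the pair of Wt libraries in one gate and lower in another. Over all 38 members 12 showed such a pattern (31.6%), as did 25.6% of all genes with at least 50 UMIs. Whether the difference between genotypes differed between the gates was not tested, and no value below passed the test within its gate. The mean of the Ho libraries minus that of the Wt libraries was, for Col3a1, 3.85 CPM in cardiomyocytes, -38.2 in cushion mesenchyme and -20.9 in epicardium. For Col4a1 it was 5.13 CPM in cardiomyocytes and 10.4 in outflow mesenchyme, but -30.2 in endocardium and -17.3 in epicardium. For Col27a1 it was 10.2 CPM in Crabp1 mesenchyme, where Ho1 held 5 UMIs of it in 20 cells, and -1.01 in endocardium and -1.34 in cushion mesenchyme.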

How the results depend on the processing

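The counts of collagen genes called higher in a gate stayed within 1.5 times in all 84 alternatives. Leaving out 1 library in turn gave 6 to 7 in cardiomyocytes, 8 to 9 in endocardium, 8 to 12 in cushion, 12 to 14 in outflow, 12 to 13 in Crabp1 mesenchyme, 9 to 11 in epicardium and 3 to 6 in epithelium. Of the values between gates of the 3 members with the largest fold among those called in each gate, 247 kept direction and call. The other 1, Col25a1 in epithelium without Wt1, lost its call. These members include Col8a2 in epicardium and Col6a3 in outflow, which the filter chose for being high there. Nothing is read from the calls of these pairs. Between genotypes the count of 0 collagens changed in some alternatives, and the cause was not tested. With no filter on low counts edgeR called 1 collagen in cardiomyocytes (Col9a1), 1 in endocardium (Col15a1), 1 in epicardium (Col11a1) and 7 in epithelium. Leaving out 1 library gave 0 to 1 in cardiomyocytes, endocardium and epicardium, 0 to 3 in outflow and 0 to 0 in cushion and Crabp1 mesenchyme. The calls were Col9a1 in cardiomyocytes, Col15a1 in endocardium and Col9a1, Col1a2 and Col4a2 in outflow without Ho2, Col1a1 in outflow and Col4a2 in epicardium without Ho1, and Col11a1 in epicardium without Wt2; the lone library of the smaller group is then assumed to vary like the other group.

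Replicate numbers did not pair the samples (correlations of deviations from -0.169 to 0.0494 over 6 gates). The replicate block called 0 collagens in 6 gates and could not be fitted in epithelium; over all genes it called 5 in cardiomyocytes, 3 in endocardium, 48 in cushion, 2 in Crabp1 mesenchyme and 42 in epicardium. A crossed replicate block in Crabp1 mesenchyme, chosen after seeing the data, called 3 collagens (Col4a1, Col18a1 and Col1a1) and 153 genes. Over all genes DESeq2 called 22 in cardiomyocytes, 26 in endocardium, 12 in cushion and 18 in epithelium, where edgeR called 0, 0, 3 and 55, and 0 with RLE normalization in epithelium. With no filter edgeR called 60 to 265 genes in a gate. Leaving out 1 library gave 17 to 77 genes in cardiomyocytes, 0 to 126 in endocardium, 0 to 68 in cushion, 20 to 292 in outflow, 0 to 40 in Crabp1 mesenchyme and 13 to 39 in epicardium.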

Other observations

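The 5330 cells in no gate also held collagen mRNA. The 38 members summed to 907 CPM (Wt1), 1548 (Wt2), 1001 (Ho1) and 829 (Ho2), with Col3a1 at 277 ± 73.6 CPM, Col1a2 at 123 ± 37.9 and Col9a1 at 120 ± 105 (SD, n = 4). There were 2490 (Wt1), 1089 (Wt2), 467 (Ho1) and 1284 (Ho2) such cells. They supplied 37.4%, 38.1%, 5.03% and 37.0% of the Col9a1 UMIs of the cells used in these libraries.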
